A study of Mus musculus with 7 samples.

Results

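Transcript assembly places RNA on the genome where no gene is annotated. The loci described here are those of the deposited mouse tissue table that carried a dash in place of a gene name, had a valid estimate in every comparison, and reached an FPKM of at least 1 in any of 7 tissues. FPKM is the number of fragments of a transcript, scaled to its length and to the total of mapped fragments. Of 94339 loci in the table, 29338 (31.1%) had no gene name, and 2998 of these (10.2%) met the rule. A further 26337 unnamed loci stayed under 1 FPKM in every tissue and 3 had a failed estimate. For comparison, 26148 of 65001 named loci (40.2%) reached 1 FPKM.

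Liver, kidney, visceral adipose tissue (VAT), brain cortex, subcutaneous adipose tissue (SCAT), interscapular brown adipose tissue (BAT) and skeletal muscle were taken from wild-type (wt) mice labelled C57BL/6 (C57BL/6N in the study's methods), of 36 weeks and on the diet labelled NCD, with no other treatment in any group. Total RNA was depleted of rRNA and sequenced as paired, directional libraries, with 1 library per tissue. No difference between tissues therefore has a replicate check, and no test was made. Fragment counts are not part of the table, and the depth of the libraries is unknown.

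Unnamed RNA of this kind can come from long non-coding RNAs missing from an annotation, from transcription past the annotated end of a gene, from introns, from enhancers and from repeats. Long non-coding RNAs are known for lower levels and narrower tissue patterns than mRNAs. Libraries of rRNA-depleted total RNA also keep unspliced and non-polyadenylated RNA, so 1 long transcript can be assembled as a row of separate loci.

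The tissue labels were checked against marker genes. Kidney (Umod and Slc34a1), cortex (Snap25 and Slc17a7), BAT (Ucp1) and muscle (Ckm) had their markers highest in the labelled tissue, and Acta1 was not found under that name. Apoa1 stood at 2521 FPKM in liver, while Alb was listed at 0 there. Alb was highest in VAT, at 253 FPKM, and VAT was also the next tissue for Apoa1, at 17.7 FPKM. Adipoq and Lep summed to 382 FPKM in VAT, 260 in BAT and 136 in SCAT. VAT also held 3 of 5 epididymal markers (Crisp1, Lcn5 and Adam7) at a summed 2639 FPKM, against at most 1.99 elsewhere, with Lcn9 and Cst11 listed at 0 in all tissues. In VAT all 4 epithelial markers (Krt14, Krt19, Upk3b and Krt5) were highest, at a summed 15.0 FPKM against at most 1.63 elsewhere. SCAT had all 3 lymphocyte markers (Ms4a1, Cd79a and Cd3e; summed 89.5 FPKM against at most 2.80) and all 4 acinar markers (Ctrb1, Cpa1, Prss2 and Cela1; summed 92.9 against at most 8.82). The erythrocyte genes Hba-a1 and Hbb-bs summed to between 85.4 FPKM in cortex and 1228 in VAT.

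The table gives bounds but no strand. Within each chromosome its loci run in successive ascending series, and of 33451 names with a single locus on the annotated chromosome, 99.0% lay on the annotated strand when the first series was read as plus and the second as minus. By this reading 1485 unnamed loci lay on plus, 1471 on minus and 42 in a further series with no strand. The reading is less certain for level than for position: of 8139 expressed names with loci on both strands, 54.2% had the higher FPKM on the annotated strand. No 2 loci overlapped in part, and loci that touch a common stretch carry identical bounds. Of the 2998 unnamed loci, 2376 (79.3%) had bounds of their own, 172 shared theirs with a named locus and 450 with unnamed loci only. Length, position and sequence are the locus's own only for the 2376.

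Where an unnamed locus overlapped the window around a RefSeq gene start, that window could be read. Of the 2376 loci with bounds of their own, 119 overlapped a RefSeq promoter window, and 70 of these had a window on their own strand. A window runs from 250 bases before the start to 50 bases after it. The 4 windows printed below (RefSeq sequence, GRCm38) belong to the liver, kidney, cortex and muscle loci with the largest tissue ratios among loci over such a window, a choice made after the values were seen. They show where the transcripts of Urml, BC040756, Bc1 and Gm51591 begin. The 50 bases after the start are in capitals.
Urml, chr13:68234682-68234981, minus strand: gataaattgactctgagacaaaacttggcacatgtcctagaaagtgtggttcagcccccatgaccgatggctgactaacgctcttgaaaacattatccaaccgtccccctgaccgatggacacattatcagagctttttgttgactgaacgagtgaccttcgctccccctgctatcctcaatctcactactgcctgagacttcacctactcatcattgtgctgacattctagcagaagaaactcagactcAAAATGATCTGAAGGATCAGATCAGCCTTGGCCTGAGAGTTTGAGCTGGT
BC040756, chr17:46351403-46351702, plus strand: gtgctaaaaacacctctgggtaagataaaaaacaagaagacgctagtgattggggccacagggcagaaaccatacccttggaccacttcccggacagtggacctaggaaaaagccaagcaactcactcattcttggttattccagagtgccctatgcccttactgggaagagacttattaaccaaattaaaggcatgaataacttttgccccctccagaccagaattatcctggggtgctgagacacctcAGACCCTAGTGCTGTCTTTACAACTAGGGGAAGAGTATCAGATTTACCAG
Bc1, chr7:144914220-144914519, plus strand: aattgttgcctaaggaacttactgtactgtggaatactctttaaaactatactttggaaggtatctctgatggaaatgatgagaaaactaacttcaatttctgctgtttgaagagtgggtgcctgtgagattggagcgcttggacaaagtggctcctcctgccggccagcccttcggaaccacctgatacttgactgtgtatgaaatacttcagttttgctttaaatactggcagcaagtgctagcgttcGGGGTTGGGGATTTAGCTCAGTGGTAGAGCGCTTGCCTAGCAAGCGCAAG
Gm51591, chr8:55366055-55366354, plus strand: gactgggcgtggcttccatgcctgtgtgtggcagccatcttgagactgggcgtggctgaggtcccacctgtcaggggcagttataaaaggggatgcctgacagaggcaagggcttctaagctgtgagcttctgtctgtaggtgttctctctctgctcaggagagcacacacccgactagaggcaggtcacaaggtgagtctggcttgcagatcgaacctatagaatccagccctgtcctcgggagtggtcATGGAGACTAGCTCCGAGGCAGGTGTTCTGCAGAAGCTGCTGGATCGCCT

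The unnamed locus over Bc1, a short non-coding RNA of neurons, spanned chr7:144914458-144914738 and had 50175.5 FPKM in cortex, 600 in VAT, 411 in BAT, 159 in SCAT, 138 in muscle, 111 in kidney and 12.9 in liver. It was present in all 7 tissues and 6.39 higher in cortex than in any other on the log2(FPKM + 0.1) scale. The kidney locus over BC040756 (chr17:46351681-46357327) had 8.63 FPKM in kidney and at most 0.0208 elsewhere. The liver locus over Urml (chr13:68225718-68236239) had 14.9 FPKM in liver, 0.161 in VAT and 0.0171 or less in each of the rest. The muscle locus over Gm51591 (chr8:55351325-55401668) had 5.16 FPKM in muscle and at most 0.0163 elsewhere. The first 3 of these loci were read on the strand opposite to the RefSeq gene, and the Gm51591 locus on the same strand.

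The Gm51591 window held the letters TATAAA when both strands were searched, and the Urml, BC040756 and Bc1 windows did not. In the Gm51591 window these letters stood nearer to the first base of the window than to the start. Their role was not tested. TATAAA stood in 20 of the 143 windows under unnamed loci (14.0%) and in 13.6% of all 32851 windows. The median GC content was 54.3% and 52.7%, respectively, and the median number of CpG dinucleotides was 8 and 7. By these measures the windows under unnamed loci were close to all windows.

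No unnamed locus with bounds of its own contained a miRNA hairpin, but some lay beside the myomiR genes, whose miRNAs act in muscle. A row of 6 muscle loci covered chr1:20670350-20678383, over RefSeq Lincmd1, the long non-coding RNA linc-MD1 that hosts Mir206 and Mir133b. The nearest of them ended 627 bases before the Mir206 hairpin and 4386 bases before that of Mir133b. The mature RNAs are shown with the seed (bases 2 to 8) in capitals, since the seeds of these neighbours differ.
mmu-miR-206-3p: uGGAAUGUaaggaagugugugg
mmu-miR-133b-3p: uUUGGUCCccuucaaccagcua

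The 6 loci over Lincmd1 had 1.40 to 2.69 FPKM in muscle and at most 0.509 in BAT, the next tissue. All 6 were read on minus, while RefSeq places both hairpins on plus. A second row beside myomiR genes lay at chr2:180392206-180430894, where the 2 highest of 5 muscle loci had 36.8 and 34.6 FPKM in muscle. One of these (chr2:180403811-180406647) started 554 bases from the named locus Mir133a-2, and the other (chr2:180392206-180395023) lay 130 bases from it on the far side. BAT was next with 0.403 and 0.581 FPKM. The Mir133a-2 locus between them had 59.5 FPKM in muscle and 0.686 in BAT.

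Most unnamed loci reached 1 FPKM, the cut-off that also chose them, in only 1 tissue. The share listed above 0 FPKM ran from 50.9% of them in BAT to 82.4% in VAT. Of the 2998, 2321 (77.4%) reached 1 FPKM in 1 tissue, 313 in 2, 115 in 3, 68 in 4, 49 in 5, 53 in 6 and 79 (2.64%) in all 7. Among named loci that reached 1 FPKM, 26.3% did so in 1 tissue and 36.9% in all 7. A locus was called 4-fold specific when it had at least 1 FPKM in a tissue and its log2(FPKM + 0.1) there was at least 2 above each other tissue. The pseudocount understates ratios of low values. By this rule 1766 unnamed loci (58.9%) were specific to a tissue, against 28.0% of all 29146 loci with at least 1 FPKM and 24.5% of the named ones. The direction of this difference depended on the pseudocount: with 1 in place of 0.1, 11.3% of unnamed and 14.7% of named loci were specific. Among loci with at least 5 FPKM, and with the pseudocount of 0.1, the shares were 55.6% and 27.5%. Since the loci were chosen by FPKM in these same libraries, these shares describe the choice as well as the loci.

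Muscle led the tissues. It was the tissue of highest FPKM for 821 unnamed loci (27.4%), followed by cortex with 544, liver with 540, VAT with 352, kidney with 284, BAT with 235 and SCAT with 222. Named loci were highest in muscle in 22.2% and in cortex in 21.2%. The 4-fold specific unnamed loci numbered 616 in muscle (20.5% of the 2998), where 5.67% of all expressed loci were specific. Cortex had 349 (11.6%, background 9.00%), liver 302 (10.1%, background 4.75%) and kidney 188 (6.27%, background 3.11%). The adipose tissues had fewer, with 119 in VAT (3.97%, background 1.53%), 102 in SCAT (3.40%, background 2.97%) and 90 in BAT (background 0.995%). Of all 8170 specific loci 21.6% had no name. By tissue it was 37.3% in muscle, 31.0% in BAT, 26.7% in VAT, 21.8% in liver, 20.7% in kidney, 13.3% in cortex and 11.8% in SCAT. Muscle kept the highest count, by less, with each row of neighbouring loci counted as 1 (353 against 286 in cortex) and with the libraries rescaled to a common median ratio (454 against 409). The order turned in other settings: with a pseudocount of 1 cortex had 102 specific loci and muscle 82, and with a minimum of 5 FPKM cortex had 96 and muscle 53. VAT passed kidney with rescaled libraries (211 against 176), a pseudocount of 1 (20 against 19) and a minimum of 5 FPKM (20 against 13). SCAT passed kidney in the last 2 of these, with 27 and 17. Kidney kept more than VAT at 2-fold (225 against 221) and at 8-fold (144 against 70). The share without a name turned too: with a pseudocount of 1 it was 10.9% in VAT, 10.2% in muscle, 8.94% in liver, 8.16% in BAT, 7.58% in SCAT, 7.25% in cortex and 4.30% in kidney (8.06% over all tissues). With a minimum of 5 FPKM it was 11.9% in VAT, 7.88% in BAT, 7.83% in liver, 7.14% in cortex, 6.26% in muscle, 4.50% in SCAT and 2.77% in kidney (6.60% over all).

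**Figure D1:**
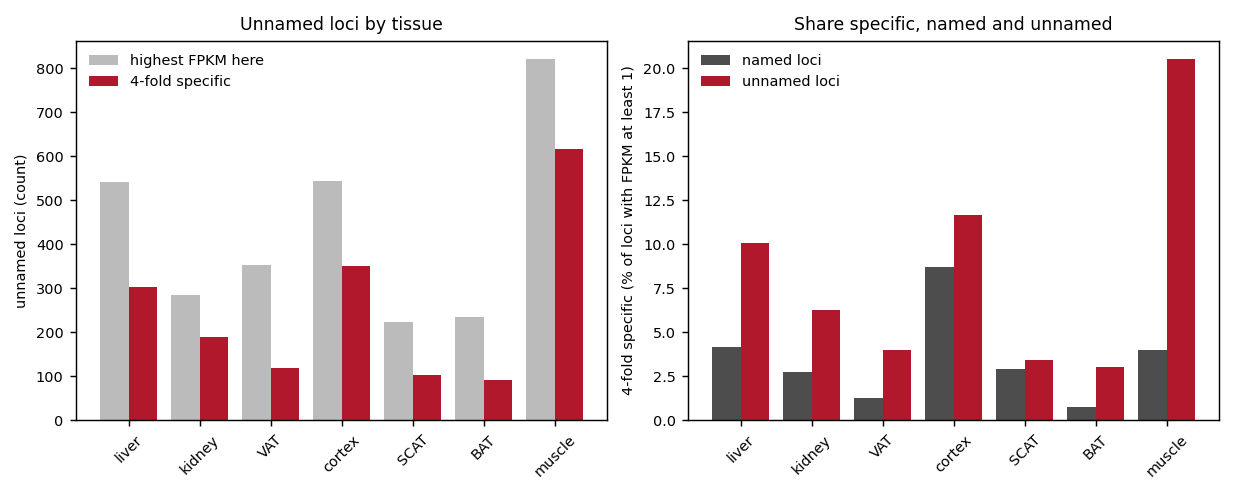
Unnamed loci by tissue. Left, bars give the number of unnamed loci with their highest FPKM in each tissue (grey) and of those 4-fold specific to it (red). Right, bars give the percentage of named (dark) and unnamed (red) loci with FPKM of at least 1 that were 4-fold specific to each tissue. With the pseudocount of 0.1 the unnamed share was 20.5% against 3.97% in muscle and 3.40% against 2.93% in SCAT; with each cluster counted once the SCAT share was 2.69%, and with a pseudocount of 1 the muscle shares were 2.74% and 2.77%.

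Levels were low. The median of the highest FPKM was 1.71 (quartiles 1.27 and 3.18), compared with 6.00 (2.43 and 18.3) for named loci. At least 5 FPKM was reached by 502 unnamed loci (16.7%) and by 54.9% of named loci. The loci just inside the threshold had 1.00019, 1.00029 and 1.0003 FPKM, and those just outside had 0.999957, 0.999805 and 0.999722. Of the specific loci, 316 were listed at 0 in all 6 other tissues.

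Length and level were linked at the short end. The loci with bounds of their own had a median length of 944.5 bases (quartiles 412 and 2324), and the longest spanned 140201 bases. Of all 2998 loci, 34 were under 100 bases, 443 were 100 to under 300 bases, 904 were 300 to under 1000 bases, 1187 were 1 to under 10 kb and 430 were 10 kb or longer. All 34 loci under 100 bases had at least 103 FPKM, with a median of 7449, while the median was 1.53 FPKM at 300 to under 1000 bases. FPKM divides by length, and the part of that division in the values of such short loci was not tested. The 3 highest values in the list belonged to this class. They were 373576000 FPKM in cortex for 13 bases at chr12:69453651-69453663, 2651170 FPKM in SCAT for 18 bases at chr12:114376408-114376425, within the immunoglobulin heavy chain region Igh, and 227054 FPKM in liver for 44 bases at chr11:6459004-6459047. The first of them was high in all 7 tissues, its lowest value being 1499650 FPKM in SCAT. The second, which had no strand, had 78624 FPKM in VAT and was listed at 0 in every remaining tissue. The third had 99125 FPKM in SCAT, 62681 in kidney and 43259 in VAT, while cortex, BAT and muscle were listed at 0.

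Of the 33 loci with at least 1000 FPKM, 27 were under 100 bases and 6 were longer, and 5 of these were highest in cortex. Besides the locus over Bc1, the cortex loci were chr5:12155104-12155221 (5401 FPKM), chr8:126503333-126503434 (5242 FPKM), chr8:60854189-60854291 (4148 FPKM) and chr4:101819874-101820028 (3405 FPKM). Their nearest expressed named loci were Sema3d at 228163 bases, Gm6091 at 26570, Clcn3 at 36126 and Lepr at 4521. Each was also listed above 0 in VAT, at 25.1 to 63.4 FPKM. The remaining locus, chrX:4899219-4899448, was broad, with 1457 FPKM in muscle and at least 260 in every other tissue. Under 300 bases, 36 loci highest in cortex had at least 100 FPKM, whereas no cortex locus of 300 bases or more did.

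**Figure D2:**
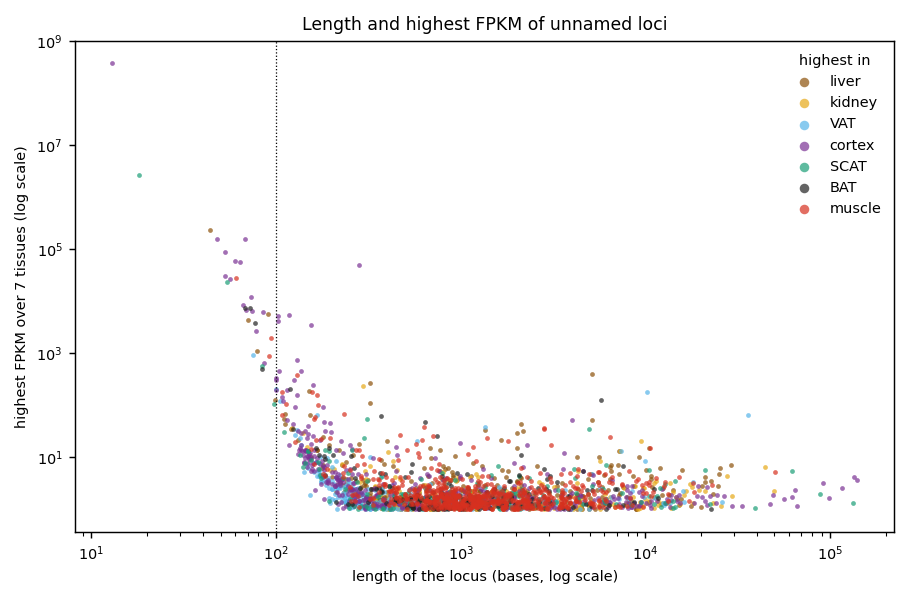
Length and highest FPKM of the 2376 unnamed loci with bounds of their own. Each point is a locus, with its length in bases and its highest FPKM over 7 tissues, both on log scales, coloured by the tissue of that FPKM; the dotted line marks 100 bases. Points rise steeply to the left of 300 bases, and the point at 281 bases and 50175.5 FPKM is the locus over Bc1.

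The 3 liver loci with the largest log2 ratio were a 112-base locus at chr18:59097891-59098002 with 67.3 FPKM, a 5147-base locus at chr15:56032848-56037994 with 52.5 FPKM and a 1648-base locus at chr16:27117042-27118689 with 21.5 FPKM. All 3 were listed at 0 in the 6 other tissues, so no fold is given. Distances here and in what follows run to the edge of the assembled named locus, which can extend past the annotated gene of that name. The nearest expressed named loci were A730017C20Rik at 20928 bases, highest in cortex, Sntb1, a syntrophin, at 125570 bases, highest in liver, and Ostn, the secreted peptide osteocrin, at 188287 bases, highest in muscle. Among loci of at least 300 bases with bounds of their own, the next was chr4:62096787-62098950, with 32.5 FPKM in liver and at most 0.216 (VAT) elsewhere. It lay over RefSeq Gm12909, 6262 bases from the assembled locus of that name. The nearest coding gene in GENCODE was Mup3, a major urinary protein gene, at 9444 bases.

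In kidney the leading loci were chr6:142058592-142059018 with 8.60 FPKM, the locus over BC040756 described above, and chr12:20226305-20233623 with 13.4 FPKM. The first was listed at 0 in every other tissue and lay 26742 bases from Slco1a6, an organic anion transporter with 88.9 FPKM in kidney and at most 0.0271 elsewhere. The third lay in an intron of the GENCODE gene Gm49692 and had 0.0876 FPKM in liver, the next tissue. Its nearest expressed named locus, Itgb1bp1, was 565314 bases away and was highest in VAT.

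In VAT the leading locus spanned bases 749 to 10892 of the unplaced scaffold GL456392.1, with 180 FPKM and 0 listed in every other tissue; no named locus lies on that scaffold. The second, chr15:75468871-75504667, had 65.6 FPKM in VAT and at most 0.0162 elsewhere. It lay over exons of Gm34531 and Gm34593 on the opposite strand and 17464 bases from Ly6l, which had 3.58 FPKM in VAT and was listed at 0 elsewhere. The third, chr1:101029552-101029733, had 9.16 FPKM and shared its bounds with another locus. Epididymal and epithelial markers were highest in the same library, and their part in these values was not tested.

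In cortex the 3 largest ratios belonged to loci under 100 bases: chr5:13088140-13088187 (154661 FPKM, 37226 bases from Sema3a), chr5:12358917-12358969 (30815 FPKM, 24415 bases from Sema3d) and chr10:9300589-9300644 (26185 FPKM). All 3 were listed at 0 elsewhere. The third lay over RefSeq Samd5, 314774 bases from the assembled locus named Samd5. Among loci of at least 300 bases with bounds of their own, an alternative list made after the values were seen, the first 3 were as follows. The locus chr12:74887519-74889791 had 17.3 FPKM in cortex and 0.102 in kidney, and stood 7428 bases from the potassium channel gene Kcnh5, itself at 3.49 FPKM in cortex. The locus chr16:94744981-94748558 had 6.07 FPKM in cortex. It lay over RefSeq Kcnj6, another potassium channel gene, and 707 bases from the assembled locus of that name. The locus chr1:110140360-110145586 had 4.56 FPKM in cortex. It lay over RefSeq Cdh7, a cadherin gene, and 202 bases from the assembled locus of that name. Both of these unnamed loci were at most 0.0229 FPKM in any other tissue.

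In SCAT the leading locus, with 14.3 FPKM and 0 listed elsewhere, was 1 of 18 loci with the bounds chr7:60675856-60839570, over Gm10297. The second, chr16:19107957-19108104, had 13.4 FPKM and lay in the immunoglobulin lambda region Igl, 1207 bases from Iglc1. The third, chr14:79280792-79280925, had 11.1 FPKM and lay 4106 bases from Rgcc. In all, 19 unnamed loci lay in the RefSeq Igl region, and all 19 were specific to SCAT, with 1.00 to 13.4 FPKM there (median 4.32) and at most 0.197 in any other tissue. The named Iglc1 locus had 94.8 FPKM in SCAT and 11.2 in VAT, and Iglc2 118 and 10.9. Immunoglobulin lambda genes are expressed by B cells, and the 3 lymphocyte markers were highest in the same library at a summed 89.5 FPKM. Fewer cells of a type and less RNA per cell cannot be told apart in such bulk samples.

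In BAT the leading locus was chr18:61477583-61489946, bounds shared by 2 loci and lying over RefSeq Lncbate10, a long non-coding RNA known from brown fat, with 7.72 FPKM in BAT and at most 0.0556 in any other tissue. A second unnamed locus over Lncbate10, chr18:61469731-61474349, had 5.51 FPKM in BAT and at most 0.0931 elsewhere. The next leading loci were chr11:103162491-103164606, over RefSeq Gm51919 and 6233 bases from Fmnl1, with 11.2 FPKM in BAT and 0.126 in SCAT, and chr1:183993778-183994316, 18985 bases from the phosphatase gene Dusp10, with 5.17 and 0.0211. Both were listed at 0 in the remaining tissues. Also among the leading loci with bounds of their own was chr10:91124335-91124971, with 48.5 FPKM in BAT, 1.33 in kidney, 0.878 in muscle and at most 0.491 in the others. It lay 275 bases from Slc25a3, the mitochondrial phosphate carrier, whose locus was highest in muscle (691 FPKM) and had 192 in BAT.

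In muscle the leading loci were chr15:61866374-61906804 with 30.6 FPKM, 78559 bases from Myc, and chr5:107084041-107090184 with 16.3 FPKM, over RefSeq Gm42146 and 16385 bases from Tgfbr3, a TGF-beta co-receptor. Both were listed at 0 in every other tissue and shared their bounds with other loci. The third, chr8:22407857-22409088, over RefSeq Gm6009, had 191 FPKM in muscle, 1.48 in kidney and 0.456 in liver. Of the loci of at least 300 bases with bounds of their own, the 2 beside Mir133a-2 led, followed by chr17:67642750-67649203 with 24.6 FPKM in muscle and 0.426 in BAT. That locus lay 9878 bases from Lrrc30, which had 54.5 FPKM in muscle and 2.67 in BAT.

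Few unnamed loci reached that cut-off of 1 FPKM in every tissue. Of the 79 with at least 1 FPKM in all 7, the smallest range was 0.42 on the log2 scale, at chr17:22197265-22385627, with 1.72 FPKM in VAT and 2.33 in cortex as its extremes; these bounds were shared by 11 loci, including Zfp758. The next were chr15:3217808-3218322, over the opposite strand of Gm7962, with 1.08 FPKM in VAT to 2.09 in SCAT, and chr2:181288613-181290229, 214 bases from Gm7645, with 1.02 FPKM in cortex to 2.05 in muscle.

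The 3 longest loci all carried shared bounds, which may be wider than their own transcripts: 2 of them were among the 64 loci with the bounds chr17:12682406-13449286 (766881 bases), with 2.45 and 1.05 FPKM in VAT, and 1 lay in the 621996 bases at chr1:19996069-20618064 over the kidney gene Pkhd1, with 1.68 FPKM in kidney. Of the loci with bounds of their own, the 2 longest lay in the region of Robo2, an axon guidance receptor. They spanned 140201 bases at chr16:74783151-74923351 and 135487 bases at chr16:74977712-75113198, with 3.65 and 4.26 FPKM in cortex and at most 0.0153 in any other tissue. The next spanned 133930 bases at chr15:56998302-57132231, with 1.29 FPKM in SCAT and 0 listed elsewhere.

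Rows of neighbouring loci made up 19.7% of the list. A cluster was counted where at least 4 unnamed loci with the same tissue of highest FPKM followed each other with gaps of at most 20 kb. There were 84 clusters with 592 loci. Muscle had 41 clusters with 325 loci, or 39.6% of all unnamed loci highest in muscle. Cortex had 16 clusters with 107 loci, liver 14 with 79, SCAT 7 with 52, kidney 4 with 21 and BAT 2 with 8, while VAT had none. The loci of a cluster may be pieces of 1 transcript and are not independent of each other.

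The largest cluster held 35 loci at chr13:83243623-83491530, all on plus and all specific to muscle. Their muscle values ran from 1.03 to 4.76 FPKM (median 2.16), and no other tissue passed 0.123 FPKM. It ended 12503 bases before Mef2c, a transcription factor of muscle and neurons, whose locus had 212 FPKM in muscle and 84.3 in cortex. The next muscle clusters held 25 loci at chr16:27683998-27778017 (1.16 to 3.29 FPKM), 231779 bases from Ccdc50, and 21 loci at chr16:86015282-86107101 (1.00 to 6.09 FPKM), 111150 bases from Adamts5. Muscle rows of 16 and 15 loci came next in size, 1386 bases from 4930488N15Rik and 50207 bases from Dazl, whose locus was highest in cortex. A row of 14 loci at chr3:60321886-60412357 (1.12 to 1.94 FPKM), named for its neighbour, lay 59850 bases from Mbnl1, a splicing regulator with 246 FPKM in muscle.

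Of the 41 muscle clusters, 33 had a nearest expressed named locus that was itself highest in muscle. It was 9 of 14 in liver, 8 of 16 in cortex, 5 of 7 in SCAT, 2 of 4 in kidney and 0 of 2 in BAT. Of single named loci, with neighbours of identical bounds skipped, the share whose nearest expressed named locus was highest in the same tissue was 28.6% in muscle, 23.8% in liver, 25.1% in cortex, 22.7% in SCAT, 20.3% in kidney and 20.6% in BAT. Of single unnamed loci by that rule, it was 63.2% in muscle, 46.0% in liver, 38.9% in cortex, 46.2% in SCAT, 38.5% in kidney and 29.4% in BAT. The muscle rows named next were picked for their neighbours. A row of 7 loci at chr10:107497017-107514998 had 1.30 to 2.22 FPKM in muscle and lay 1946 bases from Myf6, a myogenic transcription factor with 48.8 FPKM in muscle. Loci of that row overlapped RefSeq Gm36177 and Ptprq. A row of 4 loci lay 212 bases from the assembled locus named Ppp1r3a (69.2 FPKM in muscle) and 6731 bases from the GENCODE gene, which encodes the muscle glycogen-targeting subunit of protein phosphatase. Further rows of 4 lay 1954 bases from Tmem233 (102 FPKM) and 7988 bases from Mypn, the sarcomere protein myopalladin (57.6 FPKM). Their own muscle values were 1.06 to 4.09 FPKM beside Ppp1r3a, a median of 1.26 beside Tmem233 and 1.11 to 2.79 beside Mypn.

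The 5 liver clusters whose nearest expressed named locus was not highest in liver lay by Cep85l (highest in muscle), Zfp536 (cortex), Car3 (VAT), Cebpa (BAT) and Sertad2 (kidney). The largest of all 14 liver clusters, 11 loci at chr7:140710885-140760267, had 1.17 to 4.30 FPKM in liver and at most 0.422 (SCAT) elsewhere. The olfactory receptor pseudogene Olfr542-ps1 was the nearest expressed named locus at 746 bases, and Cyp2e1, a cytochrome P450 with 4606 FPKM in liver, began 3471 bases from the cluster in the GENCODE annotation. Further rows were 9 loci in the Cyp2c region at chr19:39374320-39886769 (1.12 to 55.6 FPKM), 8 in the Cyp2d region at chr15:82635175-82711613 (1.11 to 124 FPKM) and 4 at 6319 bases from the urea cycle gene Cps1 (1.31 to 2.09 FPKM). A row of 5 at chr7:35124344-35142871 had 2.44 to 6.88 FPKM in liver and lay 2415 bases from Cebpa, a transcription factor of liver and fat whose own locus had 1.53 FPKM in liver and 1.62 in BAT. Cytochrome P450 genes stand in families of near-identical copies, so the assignment of reads within the Cyp2c and Cyp2d regions is uncertain.

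In cortex the largest cluster, 13 loci at chr2:175119951-175180569, was less restricted than those above. It had 1.09 to 4.07 FPKM in cortex, up to 1.66 in BAT, and only 2 specific loci. Clusters of 12 and 6 loci lay within the gene Rbfox1, a splicing regulator of neurons and muscle, at chr16:6349017-6377238 and chr16:6649398-6673500. All 18 were highest in cortex (1.06 to 3.06 FPKM) and on the strand opposite to Rbfox1, whose own highest locus had 75.4 FPKM in muscle and 43.4 in cortex. A cluster of 10 loci at chr14:108708356-108858528 had 1.03 to 2.35 FPKM. It lay 70 bases from the assembled locus named Slitrk1, a neuronal membrane protein, but 50271 bases from the Slitrk1 gene in GENCODE. Within Snhg14, the imprinted transcript that hosts brain snoRNAs, 8 unnamed loci were highest in cortex, read on the strand opposite to Snhg14; 1 of them, chr7:59574719-59574843, had 300.04 FPKM and 0 listed elsewhere, and the others had 1.30 to 2.85.

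The remaining tissues had fewer clusters. In SCAT, 17 of the 19 Igl loci formed the largest cluster, 652 bases from Iglc1, and 11 of them shared the same bounds. In kidney, 9 loci at chr15:51005418-51097971 had up to 2.30 FPKM (median 1.42) and at most 0.0217 in any other tissue, at 114954 bases from Trps1, a GATA-type transcription factor with 10.4 FPKM in kidney. In BAT, 4 loci at chr12:82474070-82492121 had 1.37 to 8.68 FPKM, with up to 0.924 in SCAT, at 22283 bases from Sipa1l1. These were 2 stretches with a pair of loci of the same bounds each, and the other BAT row also held 4 loci.

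**Figure D3:**
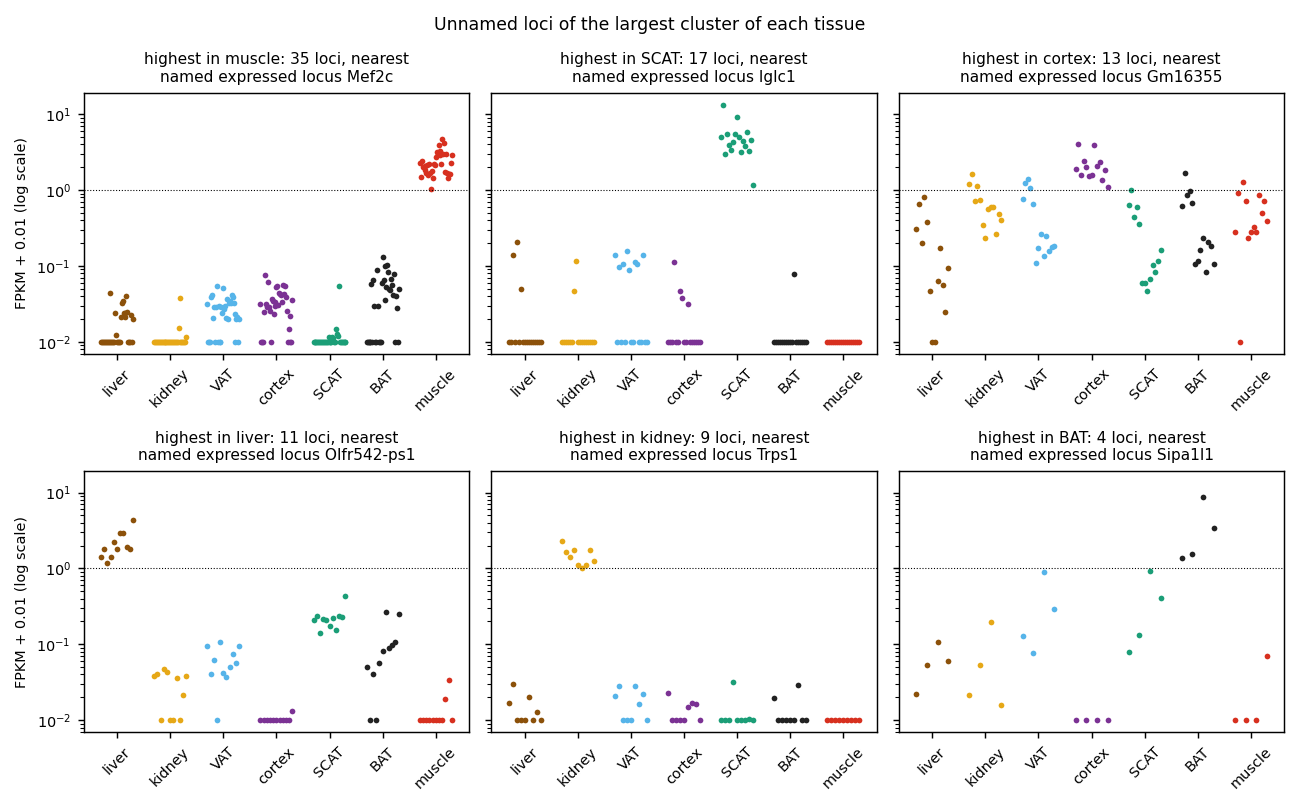
FPKM of the unnamed loci in the largest cluster of each tissue; VAT had no cluster, and BAT had 2 of equal size, of which the one near Sipa1l1 is shown. Each point is a locus in 1 of the 7 libraries, on a log scale with 0.01 added so that loci listed at 0 appear at the bottom, and the dotted line marks 1 FPKM. The 35 loci beside Mef2c stood at 1.03 to 4.76 FPKM in muscle and under 0.123 elsewhere, whereas the 13 cortex loci near Gm16355 reached 1.66 FPKM in BAT.

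Most unnamed loci lay outside annotated genes, which the choice of loci without a gene name largely sets and which is given as a description. Of the 2376 with bounds of their own, 2074 (87.3%) overlapped no gene of GENCODE M21, 242 (10.2%) overlapped a gene on the opposite strand only and 57 (2.40%) a gene on their own strand. The library type that the assembler was given is not stated in the sources used here, and its part in the excess of opposite-strand overlaps was not tested. Of the 242, 128 touched an exon and 114 lay in introns, and the genes involved included lincRNAs in 92 cases, protein-coding genes in 67 and processed pseudogenes in 53. Of the 2074 loci without a GENCODE gene, 539 (26.0%) overlapped a RefSeq gene, among them 301 over lncRNAs, 179 over protein-coding genes and 30 over tRNA genes. That left 1535 loci (64.6%) in neither annotation, and 981 of these (63.9%) were 4-fold specific to a tissue, near the 60.9% of all 2376 and against 28.0% of all expressed loci.

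Unnamed loci were spread over all autosomes and both sex chromosomes, with 11.5 per 100 expressed named loci overall. Chromosome 16 had the most, 246 loci or 29.6 per 100 named, and 109 of them lay in clusters. Without the clustered loci its ratio was 16.5 per 100, close to the 16.6 of chromosome 18. Chromosome 11 had the lowest ratio among the autosomes, at 6.33. The Y chromosome had 15 unnamed loci beside 11 expressed named loci, and the mitochondrial genome had 0. Unplaced scaffolds held 24 unnamed loci, 14 of them highest in VAT and 5 in liver.

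The distance between the edges of an unnamed locus and the nearest named locus had a median of 8099 bases over the 2986 loci on a chromosome with any named locus. Of these, 172 (5.76%) overlapped a named locus, 1054 (35.3%) lay within 5 kb, 1231 (41.2%) at 5 to 50 kb and 529 (17.7%) beyond 50 kb. The farthest was 669433 bases from any named locus. When only named loci with at least 1 FPKM were counted, the median was 15390 bases and 962 loci (32.3%) lay beyond 50 kb, and for expressed named loci, whose neighbours with identical bounds were skipped, it was 8992 bases with 17.6% beyond 50 kb. With such neighbours skipped for both, the median of unnamed loci was 17966 bases and 33.5% lay beyond 50 kb.

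Unnamed loci often had their highest FPKM in the tissue of their nearest expressed named locus. This held for 1301 of 2982 (43.6%), and for 43.3% when neighbours with identical bounds were skipped, as they were for the 26136 named loci, of which 23.8% shared the tissue of their neighbour. By that rule the share was 52.5% within 5 kb, 45.4% at 5 to 50 kb and 32.6% beyond 50 kb, while among named loci it was 23.6%, 24.7% and 21.7%. Among loci with bounds of their own the gap over all distances was smaller, 46.3% of 2370 unnamed against 32.0% of 772 named loci. There it was 56.6% against 26.8% within 5 kb, 48.1% against 38.9% at 5 to 50 kb and 34.6% against 30.6% beyond 50 kb, where 85 named loci lay. Nearly all expressed named loci share bounds with another locus, so these 772 are a small subset. With all neighbours kept for unnamed loci, the share by tissue was 63.2% in muscle (519 of 821; named loci 28.6%), 48.0% in SCAT (named 22.7%), 46.6% in liver (23.8%), 40.6% in kidney (20.3%), 37.6% in cortex (25.1%) and 30.2% in BAT (20.6%). In VAT it was 10.5% (36 of 342), below the 15.1% of named loci. Among loci with bounds of their own, the unnamed and named shares were 45.9% and 44.9% in SCAT, 48.9% and 40.1% in liver, 40.0% and 30.8% in kidney, 40.0% and 27.3% in cortex, 34.0% and 18.9% in BAT, 66.1% and 32.6% in muscle and 11.3% and 29.4% in VAT. SCAT thus showed almost no difference by this measure. With each cluster counted once the share over all tissues was 37.8%.

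Strand could be compared with the nearest expressed named locus where that locus stood on 1 strand only. Within 5 kb, 45 unnamed loci lay past the end of their neighbour on the same strand, and 38 of these (84.4%) had the same tissue of highest FPKM. It was 56 of 81 (69.1%) before the start on the same strand, 26 of 44 (59.1%) past the end on the opposite strand and 8 of 20 before the start on the opposite strand. A further 538 had a neighbour with loci on both strands. These counts are small and depend on the strand as read from the order of the table. The library type that the assembler was given is not stated. Of loci with bounds of their own, 242 overlapped genes on the opposite strand only and 57 on their own strand. Whether the same and opposite strand are swapped in these counts was not tested.

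**Figure D4:**
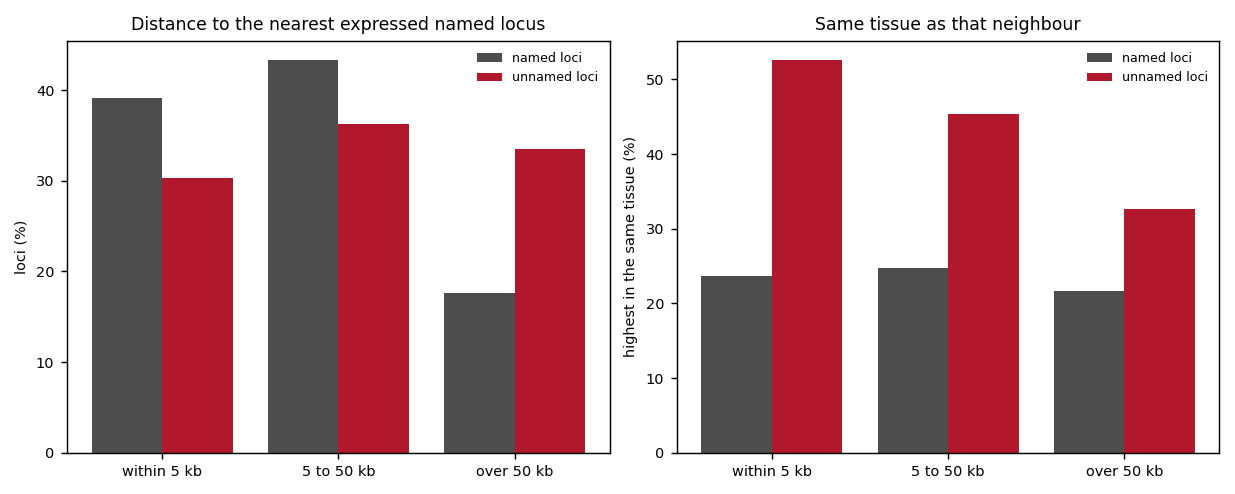
Distance and shared tissue. Left, bars give the percentage of named (dark) and unnamed (red) loci by the distance to the nearest expressed named locus; neighbours with identical bounds were skipped for both, and 33.5% of unnamed and 17.6% of named loci lay beyond 50 kb. Right, bars give the percentage whose highest FPKM was in the same tissue as that neighbour's, which for unnamed loci was 52.5% within 5 kb and 32.6% beyond 50 kb; among loci with bounds of their own it was 46.3% of unnamed and 32.0% of named loci.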

How the data were processed

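RNA-Seq of 7 mouse tissues, 1 library each, was analysed; groups are the tissue labels. Following the paper's methods and the submitters' processing notes, the authors removed adapters with flexbar and rRNA reads with Bowtie2 2.2.9, aligned to GRCm38/mm10 with STAR 2.6.0c, assembled and merged transcripts with Cufflinks 2.2.1 and cuffmerge, and ran cuffdiff. The library type and the scaling between libraries are not given in the sources used here. The deposited values are FPKM per locus and tissue. The authors' log2 fold changes, test statistics (a score), p-values and q-values of 21 tissue comparisons were deposited beside them and were not used, and their values are not printed.

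Loci with status FAIL or HIDATA in any comparison were left out. Each tissue had the same FPKM in all its comparisons. Specificity used log2(FPKM + 0.1). Starts were converted to count from 1. Loci were placed on GENCODE M21 and RefSeq GRCm38.p6 genes; RefSeq overlaps ignore strand. Promoter and miRNA sequences are RefSeq's (GRCm38), and sequence of the loci themselves was not analysed here. Depth is unknown and no interval of read counts can be given: among loci under 0.3 FPKM the commonest log2 ratio between 2 tissues held 1.20% to 11.8% of loci over 21 pairs, and relative depth was not derived from it.

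Named were the 3 specific loci with the largest ratio per tissue, the 3 highest, 3 most even, 3 longest and the loci beside the threshold, the largest cluster of each tissue and their neighbours. The names beyond this rule were picked with the values in view. The loci and lists were chosen with earlier results of these data known. The rules were tested on simulated data. Alternatives covered the pseudocount, fold, minimum FPKM, scaling, short loci, shared bounds, gaps, neighbours with identical bounds and the SCAT and VAT libraries. Python 3.11.15, pandas 2.3.3, NumPy 2.4.6 and matplotlib 3.10.9 were used.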

Additional observations from a re-analysis of the deposited data

How the results depend on the processing

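With 1 library per tissue no result has a replicate check. No paired analysis was possible because the tissues were sampled in single libraries. The number of unnamed loci was 502 at a minimum of 5 FPKM and 7527 at 0.5, so the list is set by its threshold. Specific loci numbered 338 with a pseudocount of 1 (liver 76, kidney 19, VAT 20, cortex 102, SCAT 27, BAT 12, muscle 82) and 279 at a minimum of 5 FPKM (liver 67, kidney 13, VAT 20, cortex 96, SCAT 17, BAT 13, muscle 53), and in both settings cortex, not muscle, had the most. With a pseudocount of 1 the specific share was lower among unnamed loci (11.3%) than among named ones (14.7%), the reverse of the reported order. At 2-fold there were 221 in VAT and 141 in BAT, and at 8-fold 70 in VAT, 56 in SCAT and 47 in BAT. Median ratio scaling, which shifted log2 values by -0.38 in muscle to 0.46 in SCAT, gave 211 in VAT and 159 in SCAT. Leaving out loci under 300 bases gave 73 in VAT. Counting each cluster once, chosen after seeing the data, gave 67 in SCAT and 353 in muscle. The median length was 283 bases at a minimum of 5 FPKM. The median distance was 15390 bases to expressed named loci and 5382.5 bases to genes of the GRCm38 annotation. The share with the tissue of the neighbour was 54.3% for specific loci only, 37.8% with each cluster counted once and 46.3% for loci with bounds of their own, against 32.0% of such named loci. That share was 44.0% for loci overlapping no named locus and 43.3% with neighbours of identical bounds skipped; loci are not replicates, so no error is attached to it. The other 73 values stayed within 1.5 times the reported count or median. The values without the SCAT or VAT library, with bounds of their own or with such neighbours skipped were also chosen after seeing the data. The sequence of the loci themselves was not run as an alternative.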

Other observations

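Among the 1232 unnamed loci that were not specific, the most common pair of tissues was VAT with liver. Liver was second for 158 of the 233 such loci highest in VAT. They had a median of 2.16 FPKM in VAT and 1.19 in liver, and 77 of them were under 300 bases long. Examples among the highest were chr1:100738877-100739501, with 677 FPKM in VAT, 198 in liver and 0 listed elsewhere, and bases 9885 to 12541 of the scaffold GL456396.1, with 364 FPKM in VAT, 126 in liver and at most 1.82 in any other tissue. Without the VAT library, 422 loci were specific to liver, compared with 302 with it. The liver markers Alb and Apoa1 summed to 2521 FPKM in liver and 270 in VAT, with at most 7.29 (SCAT) elsewhere. The part of such RNA in this pair of tissues was not tested.

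Of the 30 unnamed loci with bounds of their own over RefSeq tRNA genes, which encode the adaptors of translation, 15 lay on chromosome 13. Their highest FPKM ran from 1.02 to 177 (median 3.04), and 12 were highest in cortex, 9 in liver, 6 in muscle, 2 in BAT and 1 in SCAT. Of the 30, 7 (23.3%) were 4-fold specific, against 28.0% of all loci with at least 1 FPKM.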
